A study of Schizosaccharomyces pombe with 2 samples.

Results

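Annotated introns of 80 to 99 nt were the 312 introns in the authors' table of annotated intron peaks whose listed length fell in that range, out of 1292 annotated introns once repeated lines were dropped. They lay in 300 genes of fission yeast (Schizosaccharomyces pombe), with 141 introns on chromosome 1, 112 on chromosome 2 and 59 on chromosome 3. Among the listed introns they were chosen by length alone, so their branch points did not enter the choice. Reads entered only through the authors' listing of peaks, where the lowest count of the class was 5. Values of the class thus cover listed introns only. The cells were of strain 972 h- and carried delta-dbr1, a deletion of dbr1 that both libraries shared. The authors mixed total RNA of 41 culture conditions, ran it in 2 dimensions on acrylamide gels, and cut out and sequenced the arc of circular RNA. In the short run the second gel held 15% acrylamide, and in the long run it held 20%, with 1 library from each run. Only the names of the tables tie the annotated introns and their branch points to the short run. Since the conditions were mixed and neither library had a replicate, nothing was compared between conditions, and no test was made between introns or length classes.

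Splicing joins the 5′ end of an intron to an adenosine near its 3′ end, the branch point, and so releases the intron as a lariat, a loop with a short tail after the branch point. The enzyme encoded by dbr1 cuts that branch bond, after which introns are degraded, and in cells without it lariats accumulate. The letters that the splicing machinery reads are the 5′ splice site, the branch sequence, which pairs with U2 snRNA, and the 3′ splice site at the end of the intron. In fission yeast most introns are short, and many genes hold several.

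The introns below are those on which the results turn. They are 6 introns of high reads (asn1 to rsd1), introns with a short or long branch distance (yih1, hif2) or an odd branch sequence (tpz1), introns with many branch reads for their peak reads (rho2, grx2, shy1), and 2 more of the lowest (elp3, nep1). Each runs 5′ to 3′, with the 5′ splice site (the first 6 bases), the leading branch sequence (7 letters, where branch reads were listed) and the last 3 bases in capitals. The letters are from the RefSeq assembly ASM294v3 at the positions in the authors' table, whose own build the sources used here do not give. In that assembly all 312 introns ran from GT to AG, and all 219 leading branch sequences of the class lay at their listed distance. For asn1 and tpz1, whose introns the RefSeq annotation puts in a 5′ untranslated region, only the last 30 bases are given.
asn1 intron 1 last 30 bases (chr2:735289-735383, plus strand, 95 nt): tattctttgttTAGTAACcataaatttTAG
rps2402 intron 1 (chr2:2181000-2181080, plus strand, 81 nt): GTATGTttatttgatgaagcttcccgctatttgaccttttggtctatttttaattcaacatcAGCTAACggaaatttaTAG
isa1 intron 1 (chr3:1231360-1231447, minus strand, 88 nt): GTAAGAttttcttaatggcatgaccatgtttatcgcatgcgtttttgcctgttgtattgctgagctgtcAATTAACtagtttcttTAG
osh6 intron 3 (chr3:1266418-1266511, minus strand, 94 nt): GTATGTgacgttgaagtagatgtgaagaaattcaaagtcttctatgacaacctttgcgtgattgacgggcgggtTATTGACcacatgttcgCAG
rpb1 intron 5 (chr2:1591563-1591654, plus strand, 92 nt): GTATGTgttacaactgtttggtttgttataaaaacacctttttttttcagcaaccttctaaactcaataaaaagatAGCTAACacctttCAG
rsd1 intron 1 (chr1:4055873-4055963, minus strand, 91 nt): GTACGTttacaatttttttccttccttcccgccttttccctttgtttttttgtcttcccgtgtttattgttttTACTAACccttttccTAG
yih1 intron 1 (chr1:4005062-4005153, plus strand, 92 nt): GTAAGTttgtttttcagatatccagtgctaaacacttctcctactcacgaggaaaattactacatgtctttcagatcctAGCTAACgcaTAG
rho2 intron 1 (chr1:4423028-4423111, plus strand, 84 nt): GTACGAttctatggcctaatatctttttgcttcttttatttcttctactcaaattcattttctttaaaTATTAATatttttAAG
tpz1 intron 1 last 30 bases (chr1:2765707-2765803, minus strand, 97 nt): tggatgaaccattACTAAATacatgagTAG
hif2 intron 1 (chr3:194604-194693, plus strand, 90 nt): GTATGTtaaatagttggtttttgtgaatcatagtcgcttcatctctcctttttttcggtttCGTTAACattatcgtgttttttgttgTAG
grx2 intron 3 (chr1:3731809-3731892, plus strand, 84 nt): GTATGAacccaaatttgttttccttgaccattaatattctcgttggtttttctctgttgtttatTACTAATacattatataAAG
elp3 intron 1 (chr1:5104606-5104700, minus strand, 95 nt): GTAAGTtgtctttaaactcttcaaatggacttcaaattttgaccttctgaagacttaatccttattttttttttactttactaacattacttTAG
shy1 intron 1 (chr2:1505678-1505760, plus strand, 83 nt): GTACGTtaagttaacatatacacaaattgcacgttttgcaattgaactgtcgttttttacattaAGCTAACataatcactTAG
nep1 intron 1 (chr2:3304865-3304944, plus strand, 80 nt): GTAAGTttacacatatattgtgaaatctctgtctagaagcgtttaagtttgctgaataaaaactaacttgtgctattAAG

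The class was unevenly filled, with a few introns of very high reads above a long tail of low ones. Peak reads are the authors' whole-number counts per intron, not normalized for length or depth. The 312 introns held 992465 of 9296300 reads over annotated introns, which is 10.7% of the reads for 24.1% of the introns. The median was 200 reads, with quartiles of 40.8 and 1299 reads and a range of 5 to 132134 reads. Median reads were 1304.5 over the 464 introns of 100 to under 150 nt (quartiles 230 and 4888), and 2498 over the 251 introns of 150 to 200 nt (quartiles 548.5 and 7026). Those classes held 60.2% and 28.6% of the reads. The introns of 80 to 99 nt thus had lower median reads in this library than either longer class, and the cause was not tested.

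Intron 1 of asn1, which encodes an asparagine synthetase, led the class with 132134 reads (95% Poisson interval 131422 to 132848), or 13.3% of the class reads. Intron 2 of duc1, listed as SPCC594.01, had 94897 reads (94294 to 95503). Intron 1 of rps2402, which encodes the small-subunit ribosomal protein eS24, had 70772 reads (70252 to 71295). The count of isa1 intron 1 (70474 reads, 69955 to 70996) lay inside that interval, so these 2 could not be ordered, while asn1 and duc1 stood clear of both. The gene isa1 encodes an iron-sulfur protein. All such intervals cover counting error only, and reads copied by PCR are not independent molecules. Then came ggc1 (SPCC1682.09c) intron 2, in the gene of a guanine nucleotide transporter, with 52650 reads. The count was 34082 for intron 3 of osh6 (SPCC23B6.01c), whose product is an oxysterol-binding protein. The rest of the highest 10 came from genes of unlike function. The count was 29426 for intron 5 of rpb1, the gene of the large RNA polymerase II subunit, and 28493 for intron 5 of vps35, the gene of a retromer subunit. Intron 4 of SPAC1296.01c, which encodes a phosphoacetylglucosamine mutase, had 26654 reads. Intron 1 of pxp2 (SPBC17D11.03c), whose product resembles carboxymuconolactone decarboxylases, had 19231 reads. Together these 10 held 56.3% of the class reads, beside 63.7% for the 10 highest of 100 to under 150 nt and 50.6% for those of 150 to 200 nt.

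Most of the class lay far below these introns. By decade of reads, 1 intron had 100000 or more, 20 had at least 10000, 61 at least 1000, 97 at least 100 and 110 at least 10, each below the decade before, and 23 had 5 to 9 reads. The lowest value was 5 reads, shared by 5 introns, and 6 more had 6 reads. At 5 reads stood intron 1 of nep1 (a protease that removes NEDD8), intron 6 of vma5 (a subunit of the vacuolar proton pump), intron 3 of mug182 (an NADHX epimerase), intron 2 of SPAC1B3.01c (a uracil phosphoribosyltransferase) and intron 1 of mrl1 (SPBC530.09c, a mannose-6-phosphate receptor). Among those at 6 reads were intron 1 of wsp1 (an actin assembly factor), of tma23 (SPAC1952.02, ribosome biogenesis), of elp3 (the acetyltransferase of Elongator), of shy1 (assembly of cytochrome c oxidase) and of ams2 (a GATA-type transcription factor). The Poisson interval of 5 reads ran from about 2 to 12 reads, so the order among these introns carries no information.

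**Figure D1:**
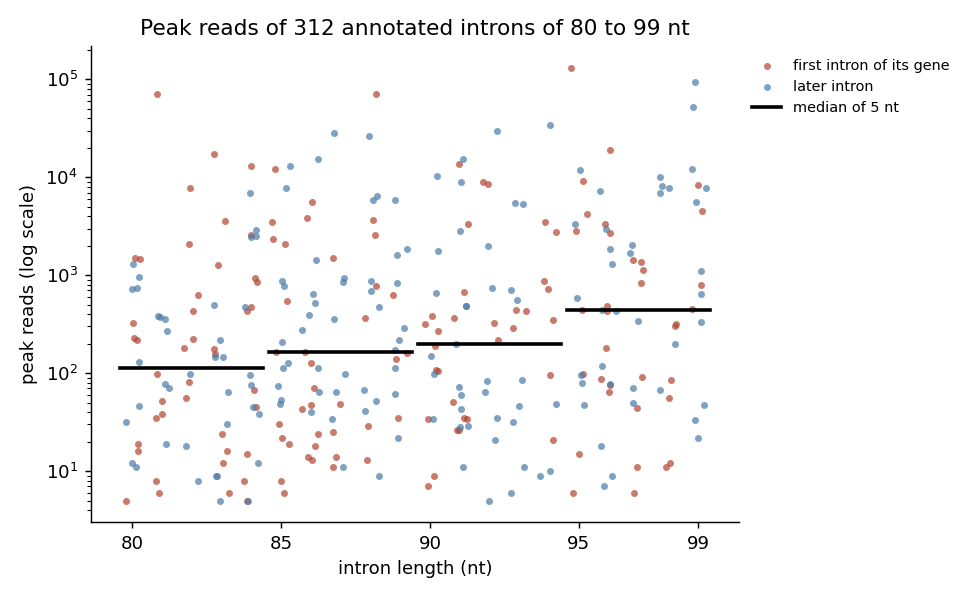
Peak reads (log scale) against intron length in nt for the 312 introns, first introns of their gene in red and later ones in blue, with points shifted sideways at random by under 1 nt so that they can be seen. Black bars are medians of 5-nt bins, at 114, 164, 201 and 443 reads, and single introns spread over several decades at every length.

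Within the class, longer introns had somewhat higher median reads, against a wide spread. The medians of the 5-nt bins were 114 reads at 80 to 84 nt, 164 at 85 to 89 nt, 201 at 90 to 94 nt and 443 at 95 to 99 nt. Across the 312 introns Spearman's rho of length and reads was 0.175, and Pearson's r on log10 reads was 0.185. These are descriptions of points that share 1 library and 1 gel. The short intron 1 of rps2402 (81 nt) and the long intron 2 of duc1 (99 nt) both stood near the top, as the plot of reads by length shows. At the lower limit, median reads were 219 over the 17 introns of 80 nt and 86 over the 16 introns of 79 nt just outside. At the upper limit, they were 1109 over the 15 introns of 99 nt and 1017.5 over the 14 introns of 100 nt just outside. Next to these lengths inside the class, they were 74 over the 14 introns of 81 nt and 251 over the 12 of 98 nt. Medians of single lengths thus varied too much to show a step at either limit. Base composition showed a similarly weak relation. The GC content had a median of 29.7% (17.7% in rsd1 intron 2 to 43.6% in osh6 intron 3), and its rho with reads was 0.221 (r 0.233 on log10 reads).

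How much of the genome's introns of this length was seen was measured against mRNA introns in the RefSeq annotation, which may differ from the annotation the authors used. Of 368 reference introns of 80 to 99 nt, 305 were listed with both ends equal (82.9%, Wilson 95% interval 78.7 to 86.4). For introns of 100 to under 150 nt the share was 93.6% (91.1 to 95.5), and for 150 to 200 nt it was 91.3% (87.2 to 94.1). Of the 63 class introns not listed, 39 measured 80 to 84 nt. At 80 to 84 nt, 81 of 120 were listed (67.5%, 58.7 to 75.2), at 85 to 89 nt 84 of 93 (90.3%, 82.6 to 94.8), at 90 to 94 nt 68 of 78 (87.2%, 78.0 to 92.9) and at 95 to 99 nt 72 of 77 (93.5%, 85.7 to 97.2). Just below the class, 53 of 124 introns of 75 to 79 nt were listed (42.7%). An unlisted intron had not always gone unseen. Of the 63 unlisted introns, 10 had branch reads in the branch table, with 1 to 4 reads each. The most, 4 reads, was over intron 2 of hpz1. Each of rdp1 intron 1, tho5 intron 1 (tho5 encodes a subunit of the THO complex of mRNA export) and thg1 intron 2 (thg1 encodes a tRNA-histidine guanylyltransferase) had 2 reads.

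**Figure D2:**
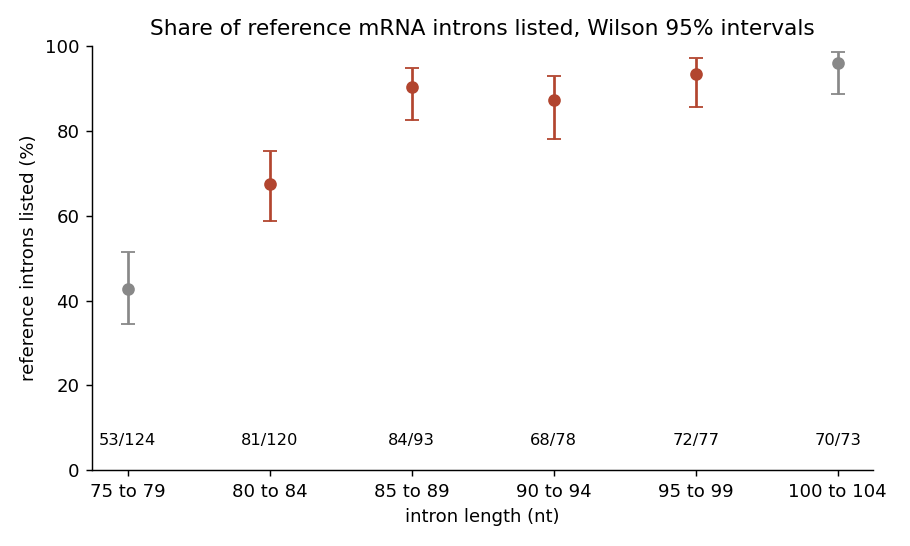
Share of RefSeq mRNA introns (in %) that were in the authors' table, by intron length in nt, with Wilson 95% intervals as bars and the numbers of introns below; red marks introns of 80 to 99 nt and grey the 5-nt bins on either side. The share is 67.5% at 80 to 84 nt and between 87.2% and 93.5% in the other red bins.

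The leading intron was also one on which the table and the annotation disagree. Of the 312 introns, 301 matched a reference intron within coding sequence, 3 one in a 3′ untranslated region (sst2 intron 4, sip1 intron 9 and ccs1 intron 3), 1 one in a 5′ untranslated region (tpz1 intron 1), and 7 matched none. For asn1 the reference intron began at the same base but ran on to position 735402, which makes it 114 nt, 19 nt longer, and ended in TT rather than AG. The intron as the authors listed it ended in TAG and carried 1230 branch reads, as its letters above show. The other 6 introns without a match shared neither end with a reference intron and had 29 to 327 reads, the most in intron 1 of csr102 (SPAC3H8.02).

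The place of an intron in its gene went with little difference in reads. Of the 312, 148 were first introns (47.4%, Wilson 95% interval 42.0 to 53.0), 85 were intron 2, 44 intron 3, 16 intron 4 and 19 intron 5 or later, up to intron 10. First introns made up 52.4% (47.8 to 56.9) of introns of 100 to under 150 nt and 55.4% (49.2 to 61.4) of those of 150 to 200 nt. The 148 first introns of the class had a median of 185 reads (quartiles 33 and 1161), and the 164 later ones a median of 204 (47 and 1340). By number, the medians were 272 for intron 2, 164 for intron 3, 161 for intron 4 and 361 for intron 5 or later. High introns occurred at each place. The highest first introns were those of asn1, rps2402 and isa1, and the highest later ones those of duc1, ggc1 and osh6, while rpb1 and vps35 reached their counts with intron 5. Introns that were the only one of their gene (69) had a median of 288 reads, and first introns of genes with more (73) a median of 156.

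**Figure D3:**
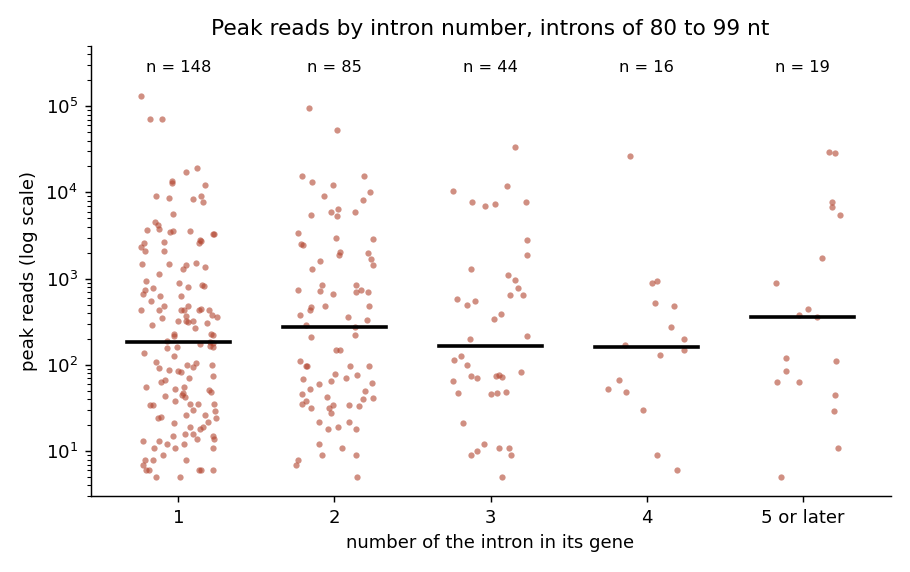
Peak reads (log scale) of the 312 introns by their number in the gene, each point 1 intron, with black bars at the medians. The medians are 185, 272, 164, 161 and 361 reads from intron 1 to intron 5 or later, inside a spread of several decades in each column.

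Introns of the same gene could differ widely in reads. Pairs from different genes were not compared, so the ratios do not show what sharing a gene does. In 12 genes the class held 2 introns, and none held more. The earlier of the 2 was higher in 6 of the 12 genes (50%, Wilson 95% interval 25.4 to 74.6), and the higher count was 1.07 to 176 times the lower, with a median ratio of 25.15. The largest ratio was in rsd1, which encodes an RNA-binding protein. Its intron 1 (91 nt) had 13582 reads and its intron 2 (96 nt) 77 reads. In ftp105, the gene of a partner of the deubiquitinase Ubp5, intron 4 (98 nt) had 67 reads and intron 6 (99 nt) 5543 reads, a ratio of 82.7. In psg2 (SPCP31B10.04), intron 1 had 3469 reads and intron 2 had 50. In these 3 genes, which had the largest ratios, the introns of a pair differed by at most 12 nt in length. The limits of the class keep every pair close in length, so this says nothing about the ratios. In nda3, which encodes beta-tubulin, intron 4 (89 nt) had 172 reads and intron 5 (85 nt) 7846. At the other extreme, the introns of crp79 had 30 and 28 reads.

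Host genes were grouped by name into 8 lists, and the medians of the lists are given beside the class median of 200 reads. The ribosomal protein list had 5 introns in the class, of which 4 lay above 200 reads, with a list median of 2067 reads. They ran from 70772 reads in rps2402 through 2822 in rpl1202 intron 1 down to 34 in rpl3802 intron 2. The ubiquitin and proteasome list had 6 introns, 4 above the class median, with a list median of 1883.5 reads. Its highest members were intron 2 of cul1, a cullin scaffold of ubiquitin ligases, with 8191 reads and intron 1 of ubc15, a ubiquitin-conjugating enzyme, with 7775, and its lowest was intron 2 of ubc12, which conjugates NEDD8, with 18. The transcription list had 4 introns, 2 on each side of the class median, with a list median of 7771.5 reads, from 29426 reads in rpb1 and 15461 in intron 2 of taf2, a TFIID subunit, to 11 in intron 2 of spt20, a SAGA subunit. With 4 to 6 introns a list, single genes decide these medians.

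The other 5 lists had 9 to 13 introns each. The splicing list had 13 introns of 12 genes, 8 above 200 reads, with a list median of 432 reads. With at least 50 reads the list median was 437, below the class median of 535. The list ran from rsd1 intron 1 and intron 2 of cwf12, a spliceosome-associated protein, with 8992 reads, to intron 4 of prp3, a subunit of the tri-snRNP, with 9. By its name alone the list also took intron 3 of SPAC4G8.12c, now smp3, which encodes a mannosyltransferase and had 6955 reads. The mitochondrial list had 11 introns, 6 above, with a median of 651 reads, from intron 1 of cyt1 (cytochrome c1, 13001 reads) and of cyt2 (SPAC24C9.02c, 8535 reads) to intron 1 of atp10 (12 reads). Small GTPases and vesicle traffic had 10 introns, 5 above, with a median of 289 reads. There vps35 was highest, and intron 6 of bet4 (SPCC1620.05), a Rab prenylation subunit, was lowest with 29 reads. Cytoskeleton and kinetochore genes had 9 introns, 4 above, with a median of 188 reads. Over its 6 introns with at least 50 reads that median was 4272, so it lay below the class median on all introns and above it (535 reads) with that minimum. Intron 3 of arp3 (12025 reads) and intron 3 of arc5 (10401 reads), both in genes of the Arp2/3 complex that nucleates actin filaments, led the list. Intron 3 of arc3, also in a gene of that complex, had only 9 reads, and intron 1 of tbc1, a tubulin folding cofactor, had 8. The meiosis and mating list was the lowest, with 4 of 12 introns above 200 reads and a median of 76.5 reads. Its highest members, mug71 intron 1 (9109 reads) and mug161 intron 1 (1436 reads), were taken by their older names, since mug71 is now dph6 and mug161 encodes a protein of the CwfJ splicing family. After them came mcp7 intron 1 with 881 reads, and then intron 2 of rec11, which encodes a meiotic cohesin subunit, with 208. Intron 8 of rec11 had 64 reads. The lowest member, mug182 intron 3 (5 reads), was likewise taken by name, and its product is an NADHX epimerase.

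Branch points were read directly in most introns of the class. Branch reads were listed for 219 of the 312 introns (70.2%, Wilson 95% interval 64.9 to 75), beside 72.2% (68.0 to 76.1) of introns of 100 to under 150 nt and 59.8% (53.6 to 65.6) of those of 150 to 200 nt. Within bands of peak reads, chosen after the values were seen, the class had a higher share than both longer classes. From 100 to under 1000 peak reads the share was 80.4%, 62.1% and 33.8% from short to long. From 1000 to under 10000 it was 96.7%, 87.0% and 71.4%. Below 100 peak reads it was 45.9%, 29.4% and 11.1%, and from 10000 to under 100000 it was 100%, 96.5% and 90.5%. The 219 introns held 8850 branch reads, with a median of 6 per intron. Introns with branch reads had a median of 477 peak reads and the 93 without a median of 40. Depth did not separate them completely. Intron 2 of get1, which encodes a subunit of the complex that inserts tail-anchored proteins, had 5316 peak reads and no branch read. The most branch reads were over rps2402 intron 1 (1822) and asn1 intron 1 (1230). The next were far lower, with 380 over intron 1 of rho2 (a GTPase of cell wall integrity), 371 over intron 1 of rps1201, 323 over intron 3 of amk2 (the beta subunit of AMP-activated kinase) and 304 over intron 3 of grx2 (a glutaredoxin).

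The branch sequences were variations on a few fixed letters. The distance given by the authors equals the number of bases after the 7-letter branch sequence up to the end of the intron. All 219 leading sequences had A at position 6, the base taken here as the branch point. In both longer classes it was 100% as well. Whether the authors' listing required an A there is not given, so it is not read as a result. Of the 219, 218 had T at position 4, 206 had A at position 5 (94.1%), 176 had C at position 3 (80.4%) and 168 had C at position 7 (76.7%), where 50 others had T. Position 1 was T in 139 (63.5%), and position 2 was A in 118 and G in 57. TACTAAC, the sequence that pairs best with U2 snRNA, led in 37 introns (16.9%, Wilson 95% interval 12.5 to 22.4), among them rsd1 intron 1. The share was 19.1% (15.3 to 23.7) for 100 to under 150 nt and 14.0% (9.34 to 20.5) for 150 to 200 nt, so the intervals overlapped. TGCTAAC led in 20 introns, TACTAAT and TATTAAC in 13 each, and AACTAAC in 11, as did AGCTAAC and also TTCTAAC, among 46 different leading sequences. Among the 10 introns with most reads, only that of ggc1 was led by TACTAAC. The leading sequence was TAGTAAC in asn1, TGCTAAT in duc1, AGCTAAC in rps2402, AATTAAC in isa1 and TATTGAC in osh6. The only intron without T at position 4 was tpz1 intron 1, in the gene of a telomere-protecting protein, where 1 branch read gave ACTAAAT. The window 1 base upstream in that intron reads TACTAAA.

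The last 30 bases were also searched, as letters only, for TACTAAC and its reverse complement GTTAGTA. A match to TACTAAC was found in 37 of the 219 introns with branch reads (16.9%), the same 37 that TACTAAC led. It was found in 17 of the 93 without branch reads (18.3%, Wilson 95% interval 11.7 to 27.3). Over all introns of each class the share was 17.3% at 80 to 99 nt, 20.3% at 100 to under 150 nt and 15.9% at 150 to 200 nt. GTTAGTA was found in 0 of the 312, with a Wilson upper bound of 1.22%. Of the 10 lowest introns, 3 held TACTAAC, among them elp3 intron 1, which had no branch read. A match describes letters and not a branch that was used.

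The branch point lay close to the 3′ splice site in nearly every intron. The median leading distance was 10 nt (quartiles 9 and 12, range 6 to 22), beside 11 nt (9 and 13, range 5 to 45) for 100 to under 150 nt and 11 nt (9 and 13, range 6 to 91) for 150 to 200 nt. From 8 to 13 nt lay 177 of the 219 introns (80.8%, Wilson 95% interval 75.1 to 85.5), against 75.5% (70.6 to 79.8) and 70.0% (62.2 to 76.8) in the longer classes. Distance hardly changed with length inside the class (rho 0.0498, r 0.0657, n = 219), so the loop from the 5′ end to the branch point, of 65 to 91 nt with a median of 77, took up the differences in length. Nor did distance go with reads (rho -0.077, r -0.103 on log10 reads, n = 219). The shortest distance, 6 nt, was listed for 5 introns. These were intron 1 of yih1 (SPAC27E2.02, 8980 reads), intron 1 of psg2, intron 2 of rec11, intron 1 of pcf2 (a subunit of chromatin assembly factor 1, 99 reads) and intron 3 of vma2 (a subunit of the vacuolar proton pump, 11 reads). For vma2 that position rested on 1 of 2 branch reads, and the other lay at 12 nt. The longest, 22 nt, was in intron 1 of hif2, a subunit of the Set3 complex, with 9 of its 11 branch reads there. Next were 19 nt in SPAC1F7.11c intron 1 and 17 nt in 5 introns, of which eme1 intron 2, mcp7 intron 1 and SPBC32H8.01c intron 2 had the most peak reads.

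**Figure D4:**
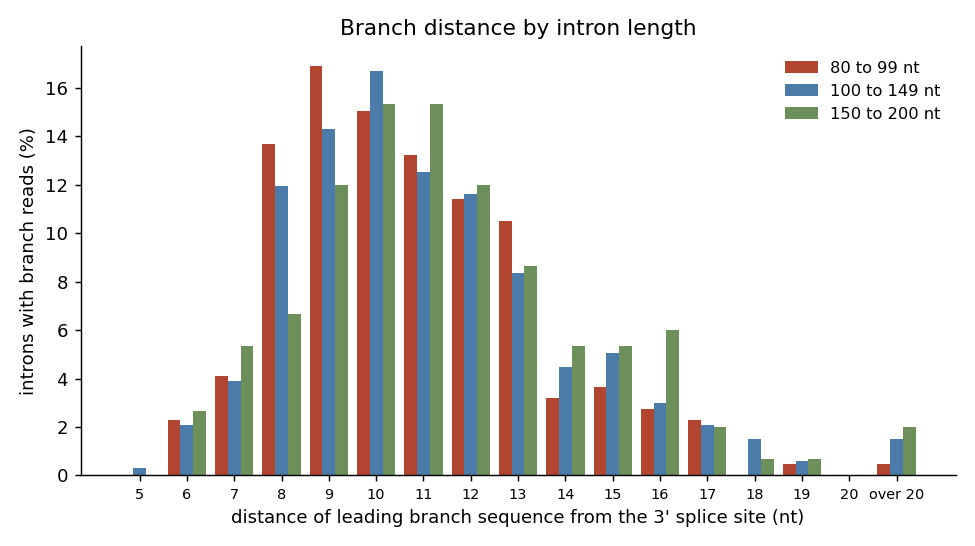
Share of introns with branch reads (in %) by the distance in nt of the leading branch sequence from the 3′ splice site, for 80 to 99 nt (red, 219 introns), 100 to under 150 nt (blue, 335) and 150 to 200 nt (green, 150). Most introns of each class lie at 8 to 13 nt, which is 80.8% of the red ones, and 1 red intron lies past 20 nt.

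Most branch reads lay at the leading position of their intron, and the 3′ splice site mostly came at the next AG. The leading position held 8689 of 8850 branch reads (98.2%, Wilson 95% interval 97.9 to 98.4). A single position was listed for 169 introns, 38 of which had only 1 branch read, and several for 50. Of the 57 introns with at least 20 branch reads, 22 had 1 position. The lowest leading share among those 57 was in intron 2 of cqd2 (SPBC15C4.02), where 29 of 36 reads lay at TATTAAC, 9 nt from the end, and 7 at AACTGAC, 5 nt from the end. In intron 2 of eme1, which encodes a subunit of a DNA junction endonuclease, 24 of 28 reads lay at CGCTAAT and the other 4 at the neighbouring position, 1 nt further from the end. In intron 3 of pmk1, a MAP kinase gene, 26 of 30 reads lay at TACTAAC, 11 nt from the end, 3 at TACTTAC, 15 nt from it, and 1 at 12 nt. Intron 1 of spa2 (SPAC3G9.05) had 41 of 45 reads at 12 nt, and intron 1 of SPBP35G2.04c had 22 of 24 at 8 nt. Reads 1 nt apart and reads at a separate A are thus both among the minor positions. The listed end of the intron was the first AG after the branch sequence in 195 of 219 introns (89%, Wilson 95% interval 84.2 to 92.5), beside 85.7% (81.5 to 89) and 83.3% (76.6 to 88.4) in the longer classes.

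Branch reads were more frequent per peak read here than in longer introns. In introns with any branch read, the median was 13.5 branch reads per 1000 peak reads (quartiles 4.52 and 56.2), beside 3.07 (1.05 and 12.4) for 100 to under 150 nt and 1.09 (0.508 and 3.67) for 150 to 200 nt. Pooled over each whole class the ratio was 8.92, 1.72 and 0.977 per 1000 in the same order of length. In the class, asn1 and rps2402 supplied 1230 and 1822 of the 8850 branch reads. The ratio also falls as peak reads rise, and the class had fewer peak reads, so it was read again within bands of peak reads that were chosen after the values were seen. From 100 to under 1000 peak reads the median over introns with branch reads was 14.7 per 1000 at 80 to 99 nt, 11.3 at 100 to under 150 nt and 6.27 at 150 to 200 nt. From 1000 to under 10000 peak reads it was 3.88, 2.09 and 1.09, and from 10000 to under 100000 peak reads 2.12, 1.13 and 0.357, again from short to long. The order by length was the same in these 3 bands, with smaller gaps between 80 to 99 nt and 100 to under 150 nt than without bands. Below 100 peak reads the medians over introns with a branch read were 95.2 per 1000 at 80 to 99 nt (61 of 133 introns), 49.0 at 100 to under 150 nt (20 of 68) and 60.2 at 150 to 200 nt (2 of 18), too few introns in the longest class to place it. Pooled over all introns of that band, the ratios were 131.8, 100.2 and 2.11 per 1000 from short to long. Intron 3 of grx2 alone gave 304 of the branch reads at 80 to 99 nt, so 1 intron weighs heavily on the first of these ratios. The cause of the difference was not tested.

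**Figure D5:**
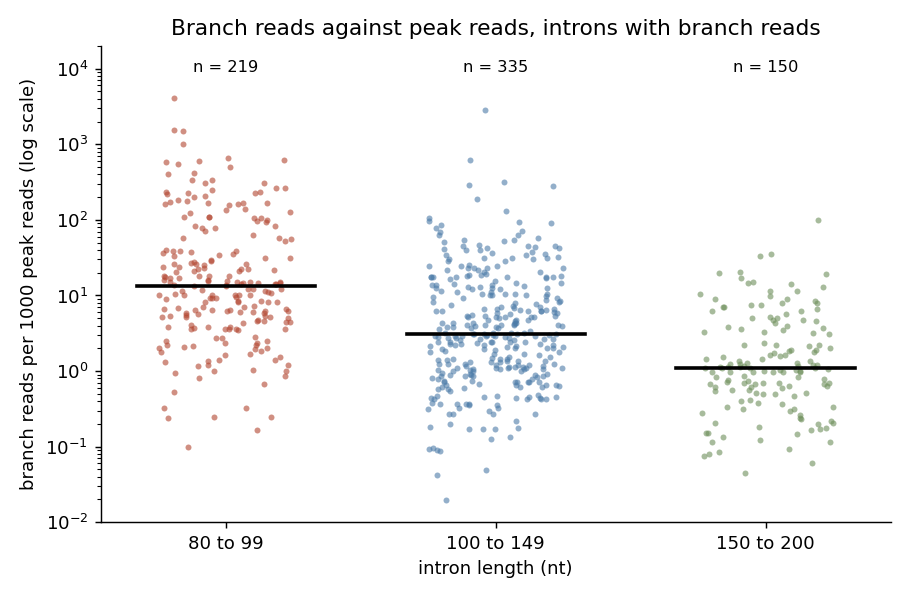
Branch reads per 1000 peak reads (log scale) of introns with any branch read, by intron length in nt, each point 1 intron and each black bar a median. The medians are 13.5 for 80 to 99 nt, 3.07 for 100 to under 150 nt and 1.09 for 150 to 200 nt, and the clouds overlap over several decades.

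Single introns ranged widely around that ratio. Intron 3 of grx2 had 304 branch reads and 75 peak reads, or 4053 per 1000. Intron 3 of snx3, a sorting nexin gene, had 71 branch reads and 46 peak reads, and intron 1 of shy1, among the lowest of the class, had 9 and 6. These 3 introns, singled out after their values were seen, were the ones with more branch reads than peak reads, so their branch reads cannot all be among the listed peak reads. At the other end, intron 2 of sbp1, the gene of a Ran-binding protein, had 1 branch read beside 10057 peak reads. Intron 3 of arp3 had 3 beside 12025, while intron 3 of arc5, in the gene of another subunit of the same complex, had 281 beside 10401. Across the 219 introns, branch reads and peak reads had a rho of 0.541 and an r of 0.552 on log10 values.

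A few 5′ splice sites recurred, among many forms. GTAAGT was the 5′ splice site of 103 introns (33%, Wilson 95% interval 28.0 to 38.4), GTATGT of 76 (24.4%) and GTACGT of 26 (8.33%, 5.75 to 11.9), among 40 different hexamers. The share of GTAAGT was 36.2% at 100 to under 150 nt and 40.2% at 150 to 200 nt, and that of GTACGT 5.39% (3.68 to 7.83) and 3.59% (1.90 to 6.67). Median reads were 208 for GTAAGT, 126 for GTATGT and 572.5 for GTACGT. The 10 introns with GTAAGC had a median of 3138 reads and the 13 with GTATGA a median of 30, groups too small to read further. GTACGT opens rsd1 intron 1 and shy1 intron 1, which lay near opposite ends of the class. The last 3 bases were TAG in 229 introns (73.4%), CAG in 54 (17.3%) and AAG in 29 (9.29%), with 70.7% and 72.9% TAG in the longer classes. Introns ending in TAG had a median of 199 reads, those in CAG of 323 and those in AAG of 75. AAG closed the introns of rho2, grx2 and nep1 shown above.

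Of the 23 circles with a skipped exon in the authors' table, 3 had a class intron just upstream of the exon, and all 3 were listed from the long run only. The circle that holds exon 2 of lat1, which encodes the acetyltransferase subunit of pyruvate dehydrogenase, was 208 nt and had 307 reads (95% Poisson interval 274 to 343). Intron 1 of lat1 had 127 reads in the short run. The circle with exon 2 of nep1 was 209 nt and had 94 reads (76.0 to 115), and intron 1 of nep1 had 5. The circle with exon 2 of rho2 was 279 nt and had 61 reads (46.7 to 78.4), and intron 1 of rho2 had 933. The reads of the circle and of the intron come from different gel runs, so they stand side by side and were not compared. A lariat that spans 2 introns and the exon between them is what is left when that exon is skipped. None of the 3 showed how often its exon was skipped, since linear RNA was not sequenced.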

How the data were processed

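Circular RNA of 2 libraries was sequenced by the authors. Per the submitters' processing notes they used Bowtie 0.12.3 and SAMtools. The sources used here do not give what each tool did, how peaks were called, or with which limits, annotation and build. The deposited tables hold, per the file headers, whole-number read counts per intron peak, per branch position and per circle with a skipped exon. The other deposited values, per the file headers, are intron lengths, positions and branch distances. The table of introns the authors added is not used here. The 9296300 reads are a sum over listed introns, not a library depth.

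Repeated lines (22 of 1314 in the annotated table, 0 of the class) were dropped. Positions were read as 1-based and inclusive and compared with RefSeq ASM294v3. Branch positions were joined by gene and intron number, and 1 intron by its number in the reference, because the tables numbered it differently. Symbols and products are RefSeq's where the table gave only a systematic name.

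Shares carry Wilson 95% intervals and single counts exact Poisson 95% intervals, tested on simulated data with Python 3.11.15, numpy 2.4.6, pandas 2.3.3, scipy 1.17.1 and matplotlib 3.10.9. Correlations are Pearson's r and Spearman's rho without a p. The length class, gene lists, rules and alternatives were chosen with earlier results of these data known. The rule for named introns took the 10 highest and 10 lowest by reads (ties in file order), the 3 highest first and later introns, and in each list the 2 highest and the lowest. It also took the 10 with most branch reads, the 5 shortest and 5 longest distances, and the 5 lowest leading shares from 20 branch reads. Introns without T at position 4, the 3 largest ratios among genes with 2 class introns, and introns beside skipped exons completed it. Other names, such as get1, nda3, crp79, snx3, sbp1, arc3, hpz1 and those of unmatched or unlisted introns, were chosen after their values were seen. An intron that the rule names and a sequence are not reported here. Alternatives changed the read minimum, introns per gene, division by length, class limits and branch minimum.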

Additional observations from a re-analysis of the deposited data

How the results depend on the processing

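Of 57 alternative values of 22 results, 42 stayed within the interval of the value reported, 15 moved and 0 reversed. A value counted as reversed only if its sign changed, which medians and shares cannot do, so that 0 says little. With at least 50 reads the splicing list passed from above to below the class median. The cytoskeleton and kinetochore list passed from below to above it. Keeping repeated lines could not change values inside the class, which had 0 of them. With at least 50 peak reads the median was 535 reads, the 10 highest held 56.4% of reads, 58.4% of reference introns counted as listed, and the median of branch reads per 1000 peak reads was 9.29. With 1 intron per gene the 10 highest held 57.3%. Narrower or wider limits gave 77.5% (80 to 89 nt), 90.3% (90 to 99 nt) and 75.8% (5 nt wider at each end) of reference introns listed, and 12.0% (80 to 89 nt) and 22.5% (90 to 99 nt) led by TACTAAC. That sequence led 22.8% of introns with at least 20 branch reads and held 11.5% of branch reads. A minimum of 5 branch reads left 38.5% of introns with a branch point. Branch reads per 1000 had a median of 5.33 with unread introns at 0, and of 3.88 from 1000 to under 10000 peak reads, a band chosen after seeing the data. Of the 7 genes with 2 class introns of at least 50 reads, the earlier was higher in 3. Medians of small lists depended on the minimum of 50 reads, without leaving their wide intervals: cytoskeleton and kinetochore 4272 reads, small GTPases and vesicles 933, meiosis and mating 178, transcription 15461, ubiquitin and proteasome 3336, and mitochondria 1048. For the transcription, ribosomal protein, and ubiquitin and proteasome lists (4, 5 and 6 introns), the interval was the full range of reads. The median of a subset cannot leave that range, so for these lists it was no check. The class median was 148 reads at 80 to 89 nt and 327 at 90 to 99 nt. The counts come from 1 library without a replicate, and how the lowest count of 5 arose is not stated, so low introns and unlisted ones may differ little. No paired analysis was possible because each run had 1 library and no test was made.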
